A study of Arabidopsis thaliana with 12 samples.

Results

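Fibrillins, also called plastoglobulins or plastid-lipid associated proteins, are lipid-binding proteins of plastids. Of 691 Arabidopsis thaliana genes with a probe of their own on the array, 5 were fibrillins: AT2G46910, AT2G35490, AT1G51110, AT5G09820 and AT5G19940. Membership required that the platform annotation pair a probe with exactly 1 gene and that the gene's description name a fibrillin or a plastid-lipid associated protein. Gene descriptions were not used here, so members were taken from a list of 14 loci of the family. AT2G46910 and AT2G35490 are named by the rule itself, and the other 3 were counted as fibrillins through the locus list. A further 5 probes were paired with between 2 and 4 genes that were all on the family list, and they are described apart, with no gene named from them.

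The family is named after a protein of the carotenoid-storing fibrils of pepper chromoplasts. In green tissue, fibrillins coat plastoglobules, the lipid droplets that bud from thylakoid membranes and hold plastoquinone, tocopherol and other prenyl lipids, or lie at thylakoids and in the stroma. Known functions in the family include keeping plastoglobules apart, supporting the synthesis of plastoquinone, and tolerance of photooxidative stress. These are statements about the family, and which of them hold for each of the 5 genes was not examined here.

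The arrays held total RNA of wild-type plants of the ecotype Wassilevskija, 6 arrays after 3 h in Murashige and Skoog (MS) medium with 60 mM sucrose and 6 treated with water. No label names a tissue, a time for the water treatment, or arrays with MS or sucrose alone, so the effects of sucrose, of MS and of the time of treatment cannot be told apart, and "sucrose arrays" below means MS with sucrose. Each array gave a linear intensity for 3439 probes with a highest value of 100. Array medians lay between 0.325 and 0.49 on the sucrose arrays and between 0.171 and 0.188 on the water arrays, and sucrose arrays 1 and 2 had the highest, 0.479 and 0.49. The sums over all probes lay closer together, from 3325 to 3461 in sucrose and from 3172 to 3296 in water. The gap in medians was thus not a factor common to all probes. As deposited, the median over all probes of their log2 differences, sucrose minus water, was 0.68, given below as that of the median probe. It is a different quantity from the gap between the array medians. The differences below come from quantile-normalized log2 values, in which the median over all probes was 0. Whether the arrays of a group hold RNA of different plants is not in the labels, so the p-values cover the spread among these arrays alone, and that spread could be technical. In bulk RNA, fewer cells of a type and less RNA per cell cannot be told apart. None of the 12 markers of seed, pollen, root and flower on a list had a probe of its own, so other tissues could not be checked.

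The question was whether fibrillin transcripts differed between plants in MS with sucrose and plants in water. After quantile normalization AT2G46910 was higher in sucrose by 2.17-fold and AT2G35490 lower by 1.45-fold, and the other 3 genes did not pass the threshold, a limma p-value of 0.05 after Benjamini-Hochberg adjustment over all 3439 probes. Thus 1 of 5 fibrillins was called higher and 1 lower. Over all probes 41.8% were called, 20.5% higher and 21.3% lower, so the share of fibrillins called was near that of the array. The median log2 difference of the 5 was 0.58, against 0 over all probes. It was the value of AT5G19940, which did not pass (limma adjusted p = 0.32). AT2G46910, AT1G51110 and AT5G19940, with positive differences, were each under the floor (defined below) on 3 water arrays. AT2G35490 and AT5G09820, above the floor on all arrays, had negative differences. Same-numbered arrays of the 2 groups resembled each other, and with the array number as a block none of the 5 passed in limma (3 did at an unadjusted p under 0.05), while 40.2% of all probes did.

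AT2G46910 was brighter on every sucrose array than on any water array. Its deposited intensity ran from 0.147 through a median of 0.224 to 0.528 in sucrose, against 0.0112, 0.0535 and 0.126 (lowest, median and highest) in water. The groups did not overlap in deposited intensity, which was so in this direction for 37.2% of all probes. Group means were 0.298 ± 0.175 in sucrose and 0.0577 ± 0.0434 in water (SD, n = 6 each). Sucrose arrays 1 and 2 were the highest of their group at 0.528 and 0.511, and water arrays 1 and 2 the lowest of theirs at 0.0219 and 0.0112.

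The fitted log2 difference of AT2G46910 was 1.12 ± 0.41 (SE, limma adjusted p = 0.048). With the array number as a block it did not pass (limma adjusted p = 0.11). The size varied with the array numbers, at 2.52 within numbers 1 and 2, 0.22 within 3 and 4, and 0.61 within 5 and 6, and without numbers 1 and 2 it was 0.42 (limma adjusted p = 0.52). On 3 of the 6 water arrays (numbers 1, 2 and 6) and on no sucrose array the probe lay under the floor. This floor is a scaled intensity of 0.0531 to which all lower values were set. The rise of AT2G46910 is thus measured against that floor, on both water arrays within numbers 1 and 2 and on water array 6 within 5 and 6. The call was also lost without any 1 of sucrose arrays 1 to 4 or water arrays 1, 2, 3 and 6, with adjusted p up to 0.099.

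**Figure D1:**
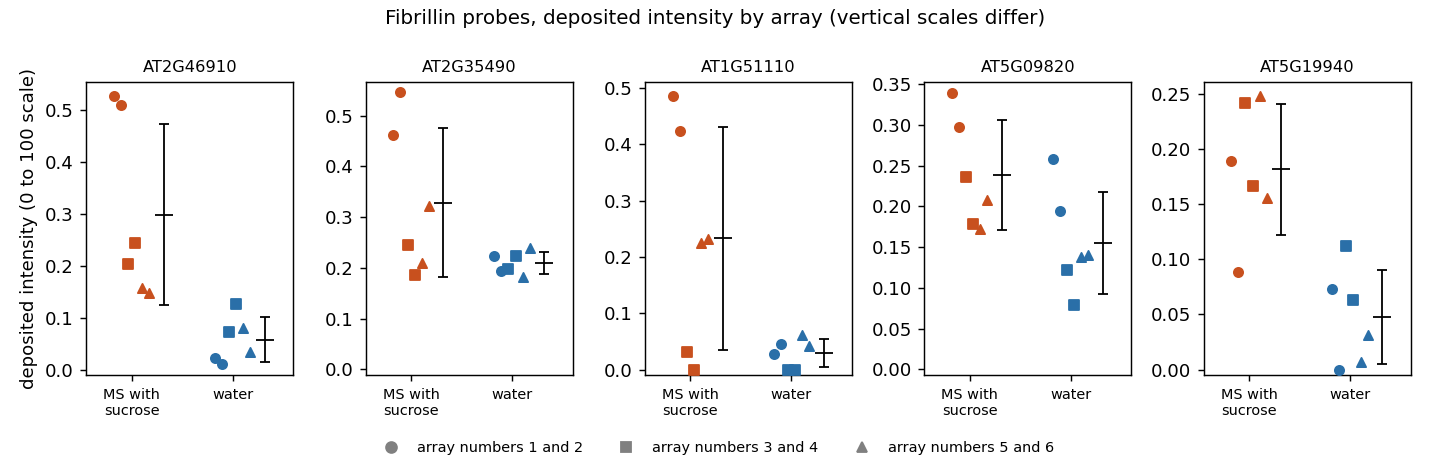
Deposited intensity (linear, on a scale that ends at 100) of the 5 fibrillin probes on 6 arrays in MS with sucrose (left, orange) and 6 in water (right, blue). Symbols mark consecutive array numbers, black bars the mean ± SD (n = 6), and the vertical scales differ. AT2G46910 does not overlap between the groups, from 0.147 upwards in sucrose and up to 0.126 in water.

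AT2G35490 varied little between the water arrays and more between the sucrose arrays. Its deposited intensity ran from 0.185 through a median of 0.283 to 0.547 in sucrose, against 0.183, 0.21 and 0.24 in water, and 4 of the 6 sucrose arrays lay above all water arrays. Means were 0.329 ± 0.147 in sucrose and 0.21 ± 0.0222 in water (SD, n = 6 each). The deposited mean was thus higher in sucrose, and its log2 difference as deposited, 0.54, was smaller than that of the median probe, 0.68.

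Relative to the other probes AT2G35490 was lower in sucrose, with a log2 difference of -0.54 ± 0.18 (SE, limma adjusted p = 0.032). The direction followed from the scaling between arrays: -0.56 with median centring (limma adjusted p = 0.022), -0.59 with cyclic loess (0.012) and 0.54 as deposited (0.096), where the median probe was at 0.68. With the array number as a block its limma adjusted p was 0.051, and without any 1 of 7 arrays (sucrose 3, 4 and 5, water 1, 3, 4 and 6) it rose to at most 0.065. The difference was -0.16 within numbers 1 and 2, -0.97 within 3 and 4, and -0.48 within 5 and 6.

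AT1G51110 varied widely between the sucrose arrays. Its intensity was 0.486 and 0.424 on sucrose arrays 1 and 2, 0.032 on array 3, listed at 0 on array 4, and 0.224 and 0.232 on arrays 5 and 6. On the water arrays it was 0.0276, 0.0453, 0.0427 and 0.0619 on numbers 1, 2, 6 and 5, and it was listed at 0 on numbers 3 and 4. Arrays with consecutive numbers thus fell together in both groups, and 4 of the 6 sucrose arrays lay above all water arrays. The log2 difference of 1.05 ± 0.46 did not pass (SE, limma adjusted p = 0.093), and its 95% interval ran from 0.03 to 2.07. The probe was under the floor on 2 sucrose and 3 water arrays. As deposited the difference was 1.81 (limma adjusted p = 0.024), and without sucrose array 3 or 4 it passed too, at 1.33 with either left out (limma adjusted p = 0.027 and 0.028).

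AT5G09820 overlapped between the groups. Its intensity ran from 0.172 through 0.222 to 0.339 in sucrose, against 0.0794, 0.139 and 0.259 in water (lowest, median and highest). The means were 0.239 ± 0.0672 in sucrose and 0.155 ± 0.0626 in water (SD, n = 6 each). After quantile normalization it differed by -0.48 ± 0.23 (SE, limma adjusted p = 0.13, 95% interval -0.998 to 0.0393). As deposited it differed by 0.67 (limma adjusted p = 0.059), close to the median probe at 0.68 on that scale. Its direction, like that of AT2G35490, thus changed with the scaling. Without water array 4, the lowest of its group, the normalized difference was -0.64 (limma adjusted p = 0.021).

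AT5G19940 was listed at 0 on 1 water array. Its intensity ran from 0.0885 through 0.178 to 0.248 in sucrose, whereas in water it was 0.0729, 0.112, 0.0634, 0.00686 and 0.0316 on numbers 1, 3, 4, 5 and 6 and listed at 0 on number 2. Of the 6 sucrose arrays, 5 lay above all water arrays. After quantile normalization the log2 difference was 0.58 ± 0.42 (SE, limma adjusted p = 0.32, 95% interval -0.35 to 1.51), with 1 sucrose and 3 water arrays under the floor. As deposited it was 1.51 (limma adjusted p = 0.0012), and the median probe was at 0.68 on that scale.

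**Figure D2:**
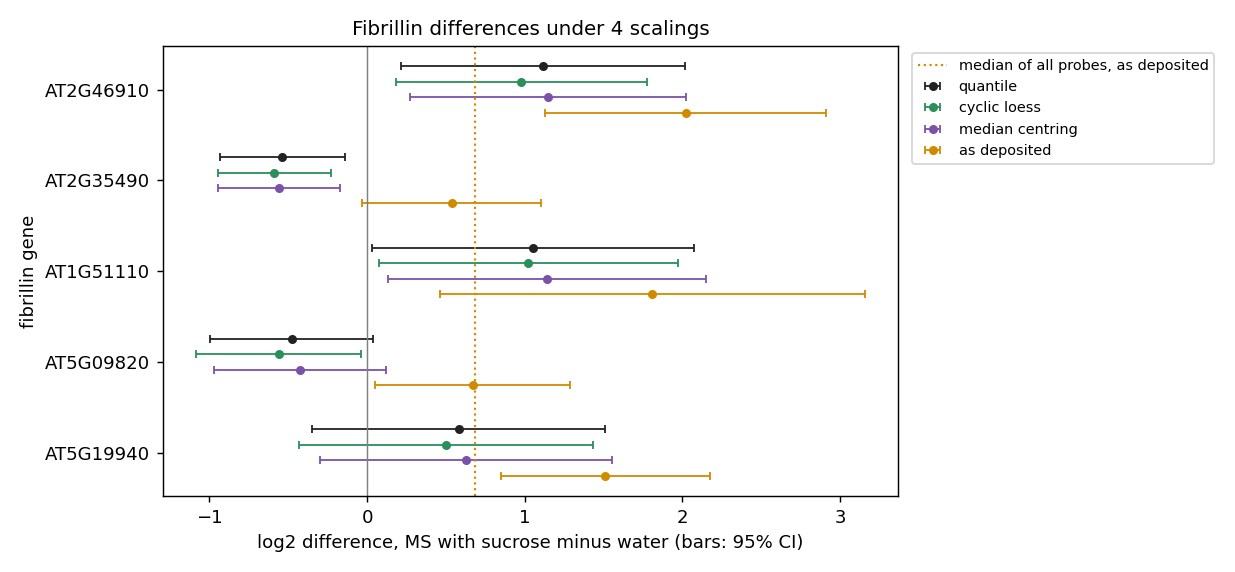
Log2 difference, MS with sucrose minus water, of the 5 fibrillins (rows) after quantile normalization, cyclic loess, median centring and as deposited (colours), with 95% confidence intervals from limma. The dotted line is the median of all probes as deposited, 0.68. AT2G46910 lies above 0 under each scaling, and AT2G35490 and AT5G09820 lie below 0 except as deposited.

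The scaling therefore set the direction for 2 of the 5 fibrillins. As deposited all 5 were higher in sucrose, 3 of them past the threshold (60.3% of all probes were called that way, 53.7% of all higher). With quantile normalization, cyclic loess or median centring 3 were higher and 2 lower, and each of these scalings called AT2G46910 higher and AT2G35490 lower. Median centring called 46.4% of all probes and cyclic loess 44.7%. The medians of the 5 were 0.50 with cyclic loess, 0.63 with median centring and 1.51 as deposited, against -0.04, -0.06 and 0.68 over all probes.

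A ratio of both probes on the same array does not change when an array is multiplied by a factor, unless a value was set to the floor. It was used to compare AT2G46910 with AT2G35490. The log2 ratio of AT2G46910 over AT2G35490 ran from -1.13 through a median of -0.18 to 0.40 in sucrose, against -2.40, -1.76 and -0.83 in water (lowest, median and highest). Its mean was -0.22 ± 0.54 in sucrose and -1.71 ± 0.65 in water (SD, n = 6 each), and 5 of the 6 sucrose arrays lay above all water arrays. The ratio was 2.80-fold higher in sucrose, a log2 difference of 1.49 (exact permutation test over 924 splits, two-sided, p = 0.0043, where the smallest possible is 0.0022). The intensities of both probes thus differed unequally between the groups, which does not tell which of them moved. The ratio removes only a factor common to the probes of an array, and other differences between arrays were not tested. The genes compared were those called higher and lower above, and no other pair of probes was tested. Both calls came from these same arrays, so a difference in the ratio was likely beforehand. Its p-value is therefore no independent support for the calls.

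AT2G46910 was under the floor on 3 water arrays in this ratio too. Without a floor, which was possible as both probes were above 0 on every array, the difference was 2.07 (exact permutation p = 0.0043). With same-numbered arrays paired, the exact sign-flip p was 0.031, the smallest that 6 pairs allow. Without numbers 1 and 2 the difference was 1.11 (exact permutation p = 0.057), and with consecutive numbers averaged, 3 against 3, p was 0.10, the smallest possible.

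**Figure D3:**
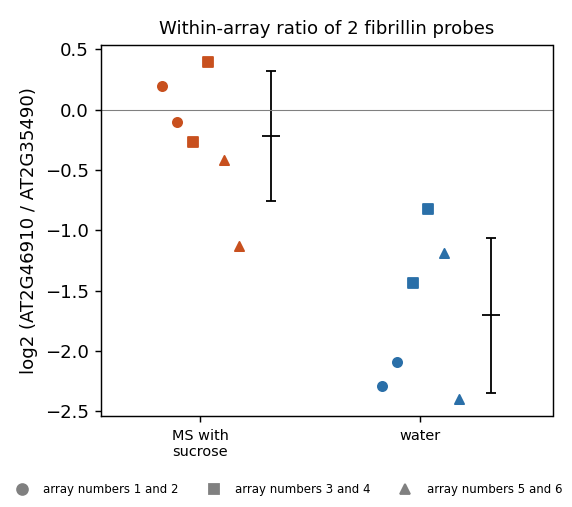
Log2 ratio of the deposited, floored intensity of AT2G46910 over AT2G35490 on each array, in MS with sucrose (left) and water (right). Symbols mark consecutive array numbers and black bars the mean ± SD (n = 6). The sucrose arrays average -0.22 and the water arrays -1.71, and sucrose array 6 at -1.13 overlaps the water arrays.

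The rank of a probe among the 3439 probes of its array does not change under any scaling that keeps the order of the probes. AT2G46910 stood at percentiles 25.3 to 54.8 in sucrose (median 35.2), against 15.5 to 38.9 in water (median 21.4). Unlike its deposited intensity, its rank overlapped between the groups, and the mean difference of 14.7 percentiles did not pass (exact permutation test, p = 0.043, adjusted over all probes 0.084). AT2G35490 stood at percentiles 30.2 to 55.8 in sucrose (median 43.1), against 49.2 to 59.6 in water (median 57.2). Its mean rank fell by 13.3 percentiles in sucrose (exact permutation test, p = 0.017, adjusted over all probes 0.039), a test that called 45.7% of all probes. With same-numbered arrays paired, the rank of AT2G35490 no longer passed (exact sign-flip test, adjusted p = 0.12).

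The ranks of the remaining fibrillins did not pass the exact permutation test after adjustment over all probes. AT1G51110 averaged percentile 31.5 ± 17.4 in sucrose and 15.6 ± 6.81 in water (SD, n = 6 each; exact permutation, adjusted p = 0.12). AT5G09820 averaged 32.7 ± 3.45 in sucrose and 44.2 ± 13.1 in water (SD, n = 6 each; exact permutation, adjusted p = 0.10), and the water arrays were the more spread. AT5G19940 averaged 28.3 ± 9.08 in sucrose and 20.6 ± 9.95 in water (SD, n = 6 each; exact permutation, adjusted p = 0.28). For AT2G35490 and AT5G09820, the lower normalized values in sucrose thus correspond to a lower place among the probes and not to a lower deposited intensity.

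**Figure D4:**
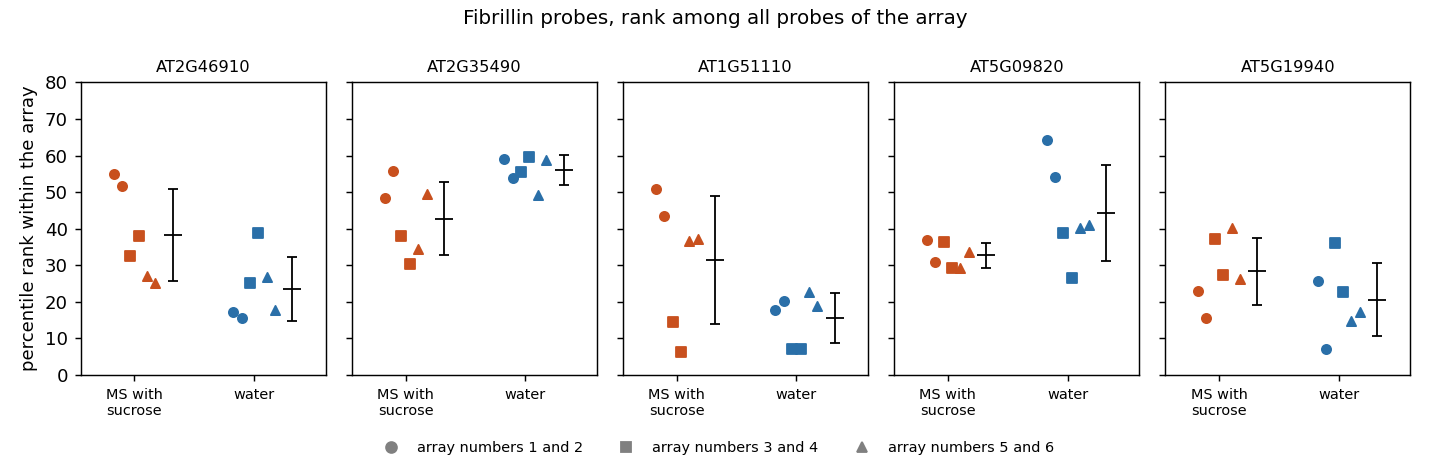
Percentile rank of each fibrillin probe among the 3439 probes of its array, for 6 arrays in MS with sucrose (left, orange) and 6 in water (right, blue). Symbols mark consecutive array numbers and black bars the mean ± SD (n = 6). The mean rank of AT2G35490 fell by 13.3 percentiles in sucrose, and the ranks of all 5 genes overlap between the groups.

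The 5 probes paired with several fibrillins gave a second reading of the family, although none of them can be assigned to a gene. Probe 1796 was brighter on each sucrose array, from 0.799 through a median of 1.13 to 1.63, against 0.302, 0.544 and 0.674 in water. Its log2 difference was 0.64 ± 0.23 (SE, limma adjusted p = 0.044), but 0.10 with median centring (limma adjusted p = 0.87), and with the array number as a block the adjusted p was 0.15. The difference was 0.12 within numbers 1 and 2, 0.23 within 3 and 4, and 1.57 within 5 and 6. The call was lost without any 1 of 9 arrays (sucrose 1, 2, 3, 5 and 6, water 3, 4, 5 and 6), with adjusted p up to 0.087.

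Probe 3363 had the largest normalized difference of these 5. Its intensity ran from 0.233 through a median of 0.384 to 0.789 in sucrose, against 0.0548, 0.0873 and 0.114 in water, and the groups did not overlap, as was so for 37.2% of all probes in this direction. The log2 difference was 1.16 ± 0.34 (SE, limma adjusted p = 0.018), 1.17 with median centring, 1.03 with cyclic loess and 2.26 as deposited. It passed under these 4 scalings, with the array number as a block (limma adjusted p = 0.022) and without any 1 array (at most 0.04). The differences within number pairs were 0.94, 0.70 and 1.83, none of which passed on its own (limma adjusted p = 0.070, 0.18 and 0.26). The call was also lost with consecutive numbers averaged (limma adjusted p = 0.078), with consecutive numbers as a random block (0.087) and without numbers 1 and 2 (1.28, limma adjusted p = 0.083).

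The other 3 such probes did not pass. Probe 2293 differed by -0.24 ± 0.27 (SE, limma adjusted p = 0.54), with sucrose arrays 1 and 2 at 0.19 and 0.303 and sucrose arrays 3 and 4 at 0.0235 and 0.0359, and it passed as lower without numbers 1 and 2 (-0.74, limma adjusted p = 0.035). Probe 2870 was listed at 0 on 4 sucrose and 5 water arrays, with 0.139 and 0.193 on sucrose arrays 1 and 2 and 0.445 on water array 2 (log2 difference -0.36 ± 0.60, SE, limma adjusted p = 0.72). Probe 4428 never exceeded the floor, so no difference could be measured for it. Of the 5 probes 2 were called, both higher, a share near that of all probes called (41.8%, with 20.5% called higher).

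**Figure D5:**
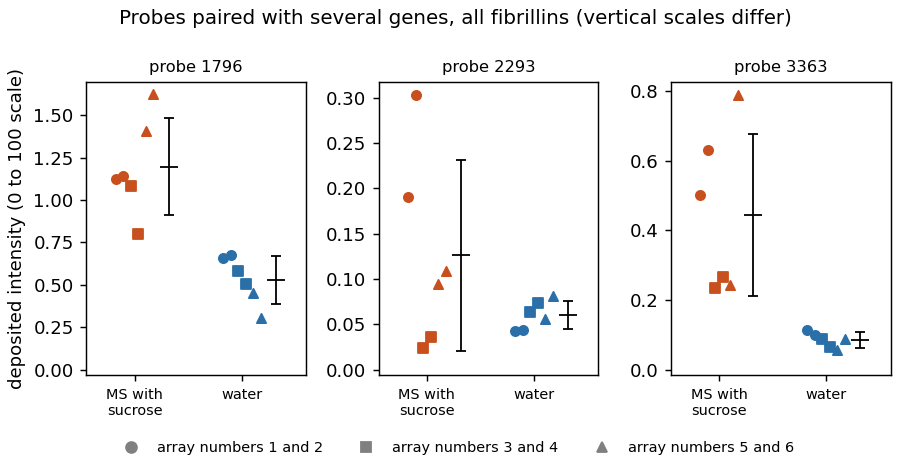
Deposited intensity of the 3 probes paired with several fibrillins that were above 0 on every array, in MS with sucrose (left, orange) and water (right, blue). Symbols mark consecutive array numbers, black bars the mean ± SD (n = 6), and the vertical scales differ. Probes 1796 and 3363 are higher in sucrose with no overlap between the groups, as 37.2% of all probes are, and probe 2293 overlaps.

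Genes that work in the same plastid lipid processes were looked up in lists given by locus. Of 16 other plastoglobule-associated proteins 2 had a probe of their own, and neither passed. AT3G24190 differed by 0.04 ± 0.83 and AT3G27110 by 0.41 ± 0.30 (SE, limma adjusted p = 1 and 0.32). Without water array 4, where its normalized value was the highest of the water arrays, AT3G27110 passed, at 0.64 (limma adjusted p = 0.042). As deposited AT3G27110 averaged 0.3 ± 0.125 in sucrose and 0.101 ± 0.0543 in water (SD, n = 6 each), a log2 difference of 1.59 (limma adjusted p = 0.0024).

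Of 14 genes of tocopherol, plastoquinone and phylloquinone synthesis 2 were measured, and 1 was called higher, against 20.5% of all probes called higher. AT1G74470, which encodes geranylgeranyl reductase, the enzyme that makes the phytyl chain of chlorophyll and tocopherol, averaged 3.26 ± 0.388 in sucrose and 1.78 ± 0.147 in water (SD, n = 6 each). Its log2 difference was 0.93 ± 0.11 (SE, limma adjusted p = 7.1e-05), but -0.22 with median centring (limma adjusted p = 0.16). AT1G78620 differed by -0.50 ± 0.24 (SE, limma adjusted p = 0.12) and by -1.12 with median centring (limma adjusted p = 0.0047), and without sucrose array 5 it passed at -0.66 (limma adjusted p = 0.027).

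Of 13 genes of carotenoid synthesis 1 was measured, Z-ISO (AT1G10830), the isomerase of 15-cis-zeta-carotene, which differed by -0.20 ± 0.35 (SE, limma adjusted p = 0.73). None of the 7 genes of jasmonate synthesis had a probe of its own. Of 170 genes whose symbol or synonym in the reference table names the plastid, chloroplast or thylakoid 1 was measured, CHL (AT3G47860), the chloroplastic lipocalin, a lipid-binding protein. It was called lower, by -0.76 ± 0.23 (SE, limma adjusted p = 0.022), against 0.26 as deposited (limma adjusted p = 0.27). Of all probes 21.3% were called lower after quantile normalization. The call was lost with consecutive numbers averaged (limma adjusted p = 0.095), with them as a random block (0.096) and without numbers 1 and 2 (-0.67, limma adjusted p = 0.12).

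The genes whose profile over the 12 arrays was most like that of each fibrillin were sought among 486 other genes above the floor on all 12 arrays, by the root mean square difference of log2 values centred on each gene's mean. For AT2G35490 the nearest were AT4G08280 (0.21), AT5G03370 (0.22) and AT5G41960 (0.22), where the median gene was at 0.57. For AT2G46910 they were AT1G11820 (0.43), AT4G39570 (0.50) and AT1G13970 (0.52), with the median gene at 0.93. The nearest to AT5G09820 were AT1G54520 (0.32), AT2G27290 (0.32) and AT5G40140 (0.33), with the median gene at 0.60.

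For AT1G51110 the nearest were AT4G30740 (0.49), AT2G43180 (0.53) and AT2G22050 (0.54), with the median gene at 0.98. For AT5G19940 they were AT1G08050 (0.53), AT3G25840 (0.56) and AT3G09050 (0.58), with the median gene at 0.88. A gene that did not vary at all would lie at 0.40 from AT2G35490, 0.87 from AT2G46910 and 0.45 from AT5G09820. It would lie at 0.92 from AT1G51110 and 0.74 from AT5G19940. No fibrillin was compared here with another, and likeness over 12 arrays in 2 groups is a description that mixes the difference between the groups with the spread within them.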

How the data were processed

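Per the labels, total RNA of 12 samples was measured, 6 in MS with sucrose and 6 in water. The authors deposited 1 spot intensity per probe and array on a linear scale. Spot reading, background correction and scaling are not given in the sources used here. The unit was inferred from the values. The number of arrays limits the precision. GEO's platform annotation, possibly old, paired 692 of 3439 probes with 1 gene and 870 with several. Names came from a reference table of assembly TAIR10.1, and no coordinates or sequences were used.

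Arrays were scaled to a common median, values under 0.0531 (the 5th percentile of positive scaled values) were set to that floor, log2 was taken and arrays were quantile normalized. Of the 5 fibrillin probes 2 were above the floor on all 12 arrays. Differences are from limma 3.58.1 under R 4.3.3 (lmFit, eBayes), Benjamini-Hochberg adjusted over all 3439 probes. The floor limits how changes of dim probes can be measured, and whether the scale understates or overstates them was not tested. The ratio test used floored deposited values (floor 0.0454). Scaling, quantile normalization and the limma fit were tested on simulated data with noise independent between arrays. The block, ratio and rank tests were not tested in that way. Figures used matplotlib 3.10.9 (Python 3.11.15).

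Members, lists and tests were chosen with earlier results of these data known. Named genes were the family members, the 3 most similar profiles of each, and up to 4 genes of each list. The labels number arrays 1 to 6 in both groups. Across probes, the residuals of same-numbered arrays after removing group means correlated at 0.43, 0.33, 0.27, 0.25, 0.21 and 0.19, over 0.1 in every pair, so the number was used as a block in an alternative fit. Consecutive numbers resemble each other in the data, and the labels give no such pairs. Alternatives were other scalings, another floor, 0.2 added, dim probes left out, blocks, averaging, array weights, a variance trend and each array left out.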

Additional observations from a re-analysis of the deposited data

Results flagged for a closer look

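Among 30 sets of 6 arrays searched (a fibrillin probe or a gene of the lists in 1 group), 2 held an array whose gap to its nearest neighbour exceeded 0.625 of the whole range, where chance alone sets apart about 1 set in 20. AT3G27110, a gene of the plastoglobule list, had a log2 value of -1.56 on water array 4, against -3.43 to -2.75 on the other water arrays (gap 0.636 of the range). Probe 2870, paired with several fibrillins, had -0.67 on water array 2, and since its 5 remaining values in water were all at the floor, -4.23, this gap equals the whole range (1). Its deposited intensity there was 0.445. None of the 5 fibrillins with a probe of their own had such an array.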

How the results depend on the processing

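The call of AT2G46910 (1.12) was lost with a floor at the 10th percentile (0.70), with 0.2 added (0.44), with the replicate block, number pairs averaged or number pairs as a random block (1.12 in each, limma adjusted p = 0.11, 0.22 and 0.10), with array weights (0.94), within numbers 3 and 4 (0.22) or 5 and 6 (0.61) and without numbers 1 and 2 (0.42). The call of AT2G35490 (-0.54) was lost with the replicate block, number pairs averaged or as a random block (-0.54 in each, limma adjusted p = 0.051, 0.15 and 0.10) and within numbers 1 and 2 (-0.16), 3 and 4 (-0.97) or 5 and 6 (-0.48), and it reversed as deposited (0.54). AT1G51110 passed as deposited (1.81), with the higher floor (0.82) and within numbers 1 and 2 (1.97). AT5G19940 passed as deposited (1.51) and was at -0.12 within numbers 1 and 2, and AT5G09820 was at 0.67 as deposited and at 0.034 within numbers 3 and 4. The lower rank of AT2G35490 (-13.3) did not pass with the replicate block or number pairs averaged (-13.3 in both, adjusted p = 0.12 and 0.21). The ratio difference (1.49) did not pass with number pairs averaged (1.49, exact permutation p = 0.10, the smallest possible) or without numbers 1 and 2 (1.11). The cause was not tested.

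With 1 array left out, the log2 difference was 0.97 to 1.37 for AT2G46910, -0.66 to -0.43 for AT2G35490, 0.84 to 1.33 for AT1G51110 and -0.64 to -0.32 for AT5G09820. The rank difference was 11.4 to 17.8 for AT2G46910, -15.9 to -10.8 for AT2G35490 (not passed without 7 of the arrays), 11.9 to 20.9 for AT1G51110 and -14.9 to -7.42 for AT5G09820. The ratio difference, 1.35 to 1.67, passed with any 1 array left out.

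The count of 1436 called probes was 730 with number pairs averaged (328 higher, 402 lower), 750 within numbers 3 and 4 (378 and 372) and 674 within numbers 5 and 6 (326 and 348), and as deposited 1848 were higher and 227 lower. With the replicate block it was 1383, of which 1278 were shared.

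Other reversals were of probes not called after quantile normalization, unless named as called below. Of the reversed values, AT5G40140 (limma adjusted p = 0.00046), AT1G54520 (0.0028) and AT4G08280 (0.022) passed as deposited, where the median probe was at 0.68. AT2G43180 passed within numbers 3 and 4 (limma adjusted p = 0.020). As deposited, probe 2293 was at 0.80, probe 2870 at 0.069, AT1G10830 at 0.92, AT5G40140 at 1.11, and, called lower after quantile normalization, AT3G47860 at 0.26, AT4G08280 at 0.47, AT5G03370 at 0.36, AT5G41960 at 0.20 and AT1G54520 at 0.62. With median centring, AT1G74470, called higher, was at -0.22 and AT5G40140 at 0.011. With the higher floor probe 2293 was at 0.0081, and with cyclic loess AT3G24190 at -0.055. Within numbers 1 and 2, probe 2293 was at 0.73, AT3G24190 at -0.090, AT1G10830 at 1.09, AT1G08050 at -0.23 and AT3G25840 at -0.32. Within 3 and 4, AT2G43180 was at -0.68, AT2G27290 at 0.24 and AT5G40140 at 0.41, and within 5 and 6 AT3G24190 was at -0.15 and AT1G78620 at 0.42. Without numbers 1 and 2 AT5G40140 was at 0.10. With 1 array left out, AT3G24190 ranged from -0.40 to 0.50, probe 2870 from -0.50 to 0.25, AT1G10830 from -0.36 to 0.014, AT5G40140 from -0.19 to 0.016 and AT3G25840 from -0.057 to 0.36. The fits without numbers 1 and 2 and the ratio without a floor were added after seeing the data. Leaving out the dimmest 25% of probes removed AT1G51110 and AT5G19940, and intensity near the floor limits both.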
